A study of Mus musculus with 24 samples.

Results

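The 10 genes described here encode proteins of elastic fibres and of the microfibrils on which those fibres are built. They were taken by name, with earlier results of these data known: Eln, Fbn1, Fbn2, Fbln1, Fbln2, Fbln5, Efemp2, Mfap2, Mfap4 and Emilin1. All 10 had a value in each of the 3 processed tables, among 25466 genes with a value in at least 1 of them and 18596 with a value in all 3. Messenger RNA was sequenced from cells sorted by flow cytometry out of mouse embryonic brains, in 24 libraries, to learn which pericyte genes depend on the TGF-beta type I receptor ALK5 while brain vessels form. Every animal carried Pdgfrb-Cre and the green reporter (Zs/+). Controls were Alk5(flox/+), so they too had Cre and 1 floxed allele, and mutants were Alk5(flox/flox), with GMH-IVH as their labelled disease state against normal in controls. Pericytes came from 4 control and 4 mutant samples at E11.5 and from 4 control and 4 mutant samples at E13.5, and endothelial cells from 5 control and 3 mutant samples at E13.5. Cre is driven by Pdgfrb, which other mesenchymal cells also express, and the endothelial cells are not the cells in which that driver acts. The labels do not tie the samples to litters or give their sex, and only group means and the authors' comparisons were used, so the spread between samples enters only through the authors' p-values.

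Elastic fibres consist of a core of crosslinked elastin laid down on a scaffold of microfibrils. Fibrillins form the microfibrils, the MFAP proteins attach to them, fibulins help to carry and crosslink elastin, and EMILIN1 lies where elastin meets the microfibril. Microfibrils also hold latent TGF-beta complexes through the latent TGF-beta binding proteins, and TGF-beta is a known inducer of several of these genes. Large arteries are the best known site of elastic fibres, where smooth muscle cells make them, while microfibrils without elastin also occur around small vessels.

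For the targeted gene, Tgfbr1 (Alk5), the authors' deposited tables gave means of 4609 in controls and 6196 in mutants at E11.5, 5700 and 5823 at E13.5, and 3066 and 2849 in endothelial cells. No fall of this gene was called in the mutants, and as values over the floxed part alone were not used here, these means do not check the labels. Pdgfrb, the defining pericyte marker, stood at the 97.7th and 98.2nd percentile of gene levels in control pericytes of E11.5 and E13.5 and at the 45.4th in control endothelial cells. Fibroblast and meningeal markers were also high in both pericyte sorts, with median percentiles of 93.7 and 98.3, and the labels give mesenchymal cells as the cell type of these sorts. All 10 endothelial markers had a value in the endothelial cells, at a median percentile of 98.9. Of the same markers 7 had a value in the E11.5 pericytes, at a median percentile of 44.3, and 8 in the E13.5 pericytes, at one of 48.3. Cdh5, the endothelial cadherin gene, had control means of 252 and 876 there by the authors' deposited tables, at the 53.6th and 74.2nd percentile, while Pecam1 and Cldn5 were listed in neither pericyte table.

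All 10 genes were expressed in control pericytes at both stages, and Eln stood apart from the others at E11.5. A level here is the authors' mean normalized read count of a group, and levels of different genes are compared only per kilobase of the longest coding transcript. In the authors' deposited tables the control mean of Eln was 233 at E11.5, at the 52.3rd percentile of all genes, and 3567 at E13.5, at the 94.3rd. Each table has its own normalization, so only the percentiles can be set side by side. The other 9 genes lay between the 82.9th percentile (Fbln5) and the 99.6th (Fbn2) at E11.5 and between the 89.4th (Efemp2) and the 99.8th (Fbn2) at E13.5. In control endothelial cells the 10 genes ranged from the 35.9th percentile for Eln to the 93.4th for Mfap2.

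**Figure D1:**
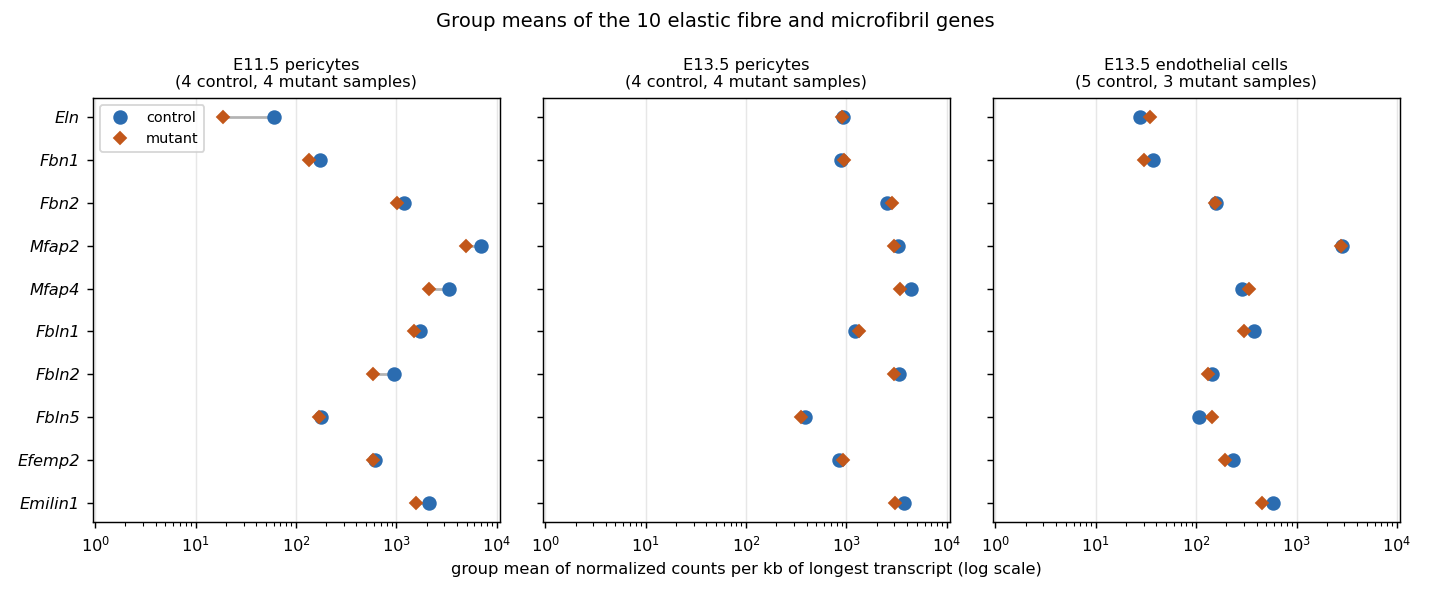
Group means of normalized counts per kilobase of the longest coding transcript (horizontal log axis) for the 10 genes (rows), in controls (circles) and mutants (diamonds) of each table; each table has its own normalization and each point is 1 group mean with no error bar. Eln in E11.5 pericytes shows the widest gap between the groups, 60.4 in controls and 18.7 in mutants.

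Within a table the order of the genes is free of that limit. Per kilobase, Mfap2 ranked first among the 10 in control pericytes at E11.5 with 6973, followed by Mfap4 with 3323 and Emilin1 with 2121, while Fbn1 and Eln came last with 173 and 60.4. At E13.5 Mfap4 came first with 4345, then Emilin1 with 3718, Fbln2 with 3374 and Mfap2 with 3225, and Fbln5 came last with 390. In control endothelial cells Mfap2 led with 2830, Emilin1 followed with 576, and Eln was again the lowest with 27.5. Whether neighbours in these orders differ beyond the spread between samples could not be tested, since the deposited means carry no error of their own. With the median in place of the longest coding transcript, 4 of 10 genes kept their rank in each table. Fbln2, whose median coding transcript has 477 bases and whose longest has 4786, then ranked first in pericytes at both stages.

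The make-up of the group was not the same at both stages in controls. Shares here use the longest coding transcript, and with median lengths Fbln2 ranked above Mfap2 at both stages. Mfap2, which encodes the small microfibril protein MAGP-1, held 40.3% of the summed level per kilobase at E11.5 and 15.0% at E13.5. Fbln2, a fibulin of vessel walls and basement membranes, held 5.50% and 15.7%. Eln held 0.349% at E11.5 and 4.31% at E13.5. Of the 2 fibrillins, Fbn2 is known as the more embryonic form, and its level per kilobase was 6.84 times that of Fbn1 in control pericytes at E11.5 and 2.88 times at E13.5. In mutants these ratios were 7.64 and 2.97. Fbln1 was 1.82 times Fbln2 at E11.5 and 0.364 times at E13.5 in controls, but 0.223 and 0.0448 times with median transcript lengths, so which of them leads at E11.5 depends on the transcript used. The stages are in separate tables and no value per sample was used here, so these proportions are descriptions with no test.

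**Figure D2:**
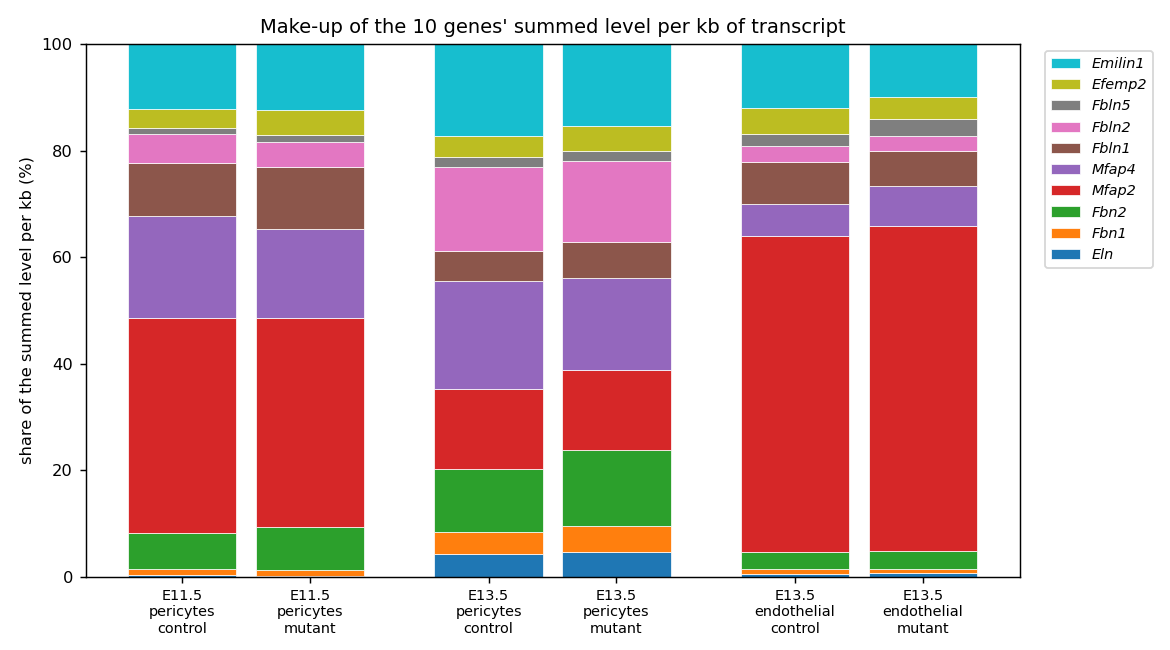
Share of the summed level per kilobase of the longest coding transcript (vertical axis, %) held by each of the 10 genes. Bars stand for the control and mutant group of each table, and each bar is built from group means. Mfap2 takes the widest band at E11.5 and in endothelial cells (40.3% and 59.2% in controls), and the bands of Fbln2, Fbn1 and Eln are wider in E13.5 pericytes than at E11.5.

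In mutant pericytes at E11.5, RNA of Eln and of Mfap4 was lower than in controls. Eln encodes the elastin precursor and lies on the minus strand of chromosome 5 (mm10, chr5:134702593-134747323), and the authors' deposited table put its mean at 233 in controls and 72.2 in mutants. That is a 3.22-fold fall, and its log2 ratio was -1.69 (SE 0.32, 95% interval -2.32 to -1.06) with the adjusted p, the FDR of the authors' deposited table, at 7.84e-05. Mfap4, which encodes a fibrinogen-related glycoprotein that binds elastin and fibrillin, lies on the plus strand of chromosome 11 (chr11:61485431-61488900). The authors' deposited table put its mean at 5722 in controls and 3627 in mutants, and its log2 ratio was -0.66 (SE 0.19, 95% interval -1.02 to -0.30, FDR 0.0202). Each SE and 95% interval was obtained from the authors' ratio and p together.

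So 2 of the 10 genes fell at E11.5 and none rose, where 3.35% of 19301 tested genes were called, 2.7% as lower and 0.642% as higher. At an FDR under 0.1 Mfap2 joined them, with 5.9% of all genes called, 4.49% lower and 1.41% higher, and scaled to summed means the calls were again Eln and Mfap4, with 4.23% of all genes called. All 10 had a ratio below 1, against 50.4% of all tested genes, and their median log2 ratio was -0.39 beside one of -0.00 over all tested genes. The genes share their libraries, so these are not 10 separate observations. In sorted bulk cells, fewer cells that express a gene and less of its RNA per cell cannot be told apart. The calls rest on the authors' estimate of the spread: when test statistics are rescaled so that their median absolute size matches that of a standard normal, the adjusted p of Eln is 0.267 and that of Mfap4 0.981, and 0.0259% of all genes pass. Over the alternatives tried, the adjusted p ran from 3.62e-05 to 0.267 for Eln and from 0.00964 to 0.981 for Mfap4.

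The microfibril scaffold genes did not pass at E11.5. The authors' deposited table gave Fbn2 means of 13040 in controls and 11310 in mutants, and Fbn1 means of 2066 and 1605. Their log2 ratios were -0.21 (95% interval -0.55 to 0.14) and -0.36 (95% interval -0.79 to 0.06), with an FDR of 0.557 and 0.367 from the authors' deposited table. Both intervals include 0, and both leave room for a fall of about the size seen for Mfap2. Mfap2 itself had means of 7482 and 5356 by the authors' deposited table, and its log2 ratio of -0.48 (SE 0.17) had an FDR of 0.0931.

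Among the 4 fibulins at E11.5, Fbln2 had the lowest ratio and none passed. By the authors' deposited table its means were 4550 and 2811 and its log2 ratio -0.69, while its SE of 0.37 was the widest among the 10 genes and its FDR was 0.297. Fbln1, found in basement membranes and in the elastin core, had means of 6317 and 5441, by the authors' deposited table. Fbln5, which links elastin to cell-surface integrins, had means of 1029 and 997, and Efemp2 (fibulin-4), which brings lysyl oxidase to elastin, means of 1607 and 1526, by the authors' deposited table. The log2 ratios of Fbln5 and Efemp2, -0.05 and -0.07, were the nearest to 0 among the 10, with 95% intervals of -0.48 to 0.39 and -0.41 to 0.26. For Emilin1 the authors' deposited table gave means of 8172 and 6088, and the log2 ratio was -0.42 (SE 0.22, FDR 0.282).

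**Figure D3:**
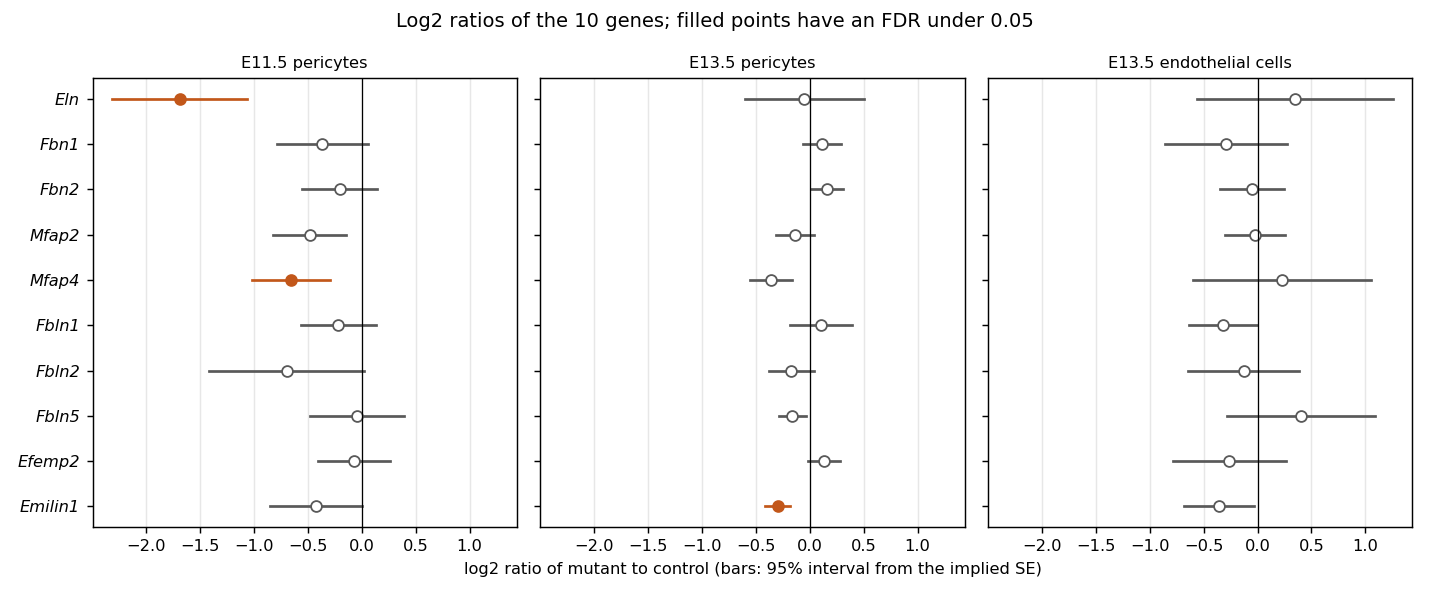
Log2 ratio of mutant to control (horizontal axis) for the 10 genes (rows) in the 3 tables; points are the deposited ratios, bars the 95% intervals from the implied SE, and filled points have an adjusted p under 0.05. At E11.5 every point lies below 0 and Eln lies farthest from it at -1.69, while at E13.5 the pericyte points lie between -0.36 and 0.16 with Emilin1 filled.

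Summed markers of several cell types were also below their control level in the E11.5 mutant samples. The summed level of the 10 genes was 0.773 times that of controls, that of 10 fibroblast and meningeal markers 0.754 times, that of 9 pericyte markers 0.797 times and that of 6 cartilage and bone progenitor markers 0.799 times. Of the fibroblast and meningeal markers 4 fell (Col1a2, Dcn, Ogn and Aldh1a2) and none rose. Of the pericyte markers 4 fell (Rgs5, Kcnj8, Abcc9 and Cspg4) and none rose. Over all tested genes 2.7% were called lower and 0.642% higher. Myeloid and endothelial markers were at 0.493 and 0.461 times their summed control level, with 1 of 6 and 1 of 7 listed members past the threshold. The 6 smooth muscle markers stood at 1.11 times, and Des, an intermediate filament gene of muscle and mural cells, was the member that rose. The part of these cell types in the fall of Eln and Mfap4 was not tested.

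In mutant pericytes at E13.5 Emilin1 fell, and the elastin gene did not pass. The authors' deposited table gave Eln means of 3567 in controls and 3448 in mutants, and its log2 ratio was -0.05 (SE 0.28, 95% interval -0.60 to 0.51, FDR 1.00). Emilin1 encodes a glycoprotein at the elastin surface that also restrains the processing of the TGF-beta precursor, and lies on the plus strand of chromosome 5 (mm10, chr5:30913402-30921277). The authors' deposited table put its mean at 14324 in controls and 11659 in mutants, a 1.23-fold fall, and its log2 ratio was -0.30 (SE 0.06, 95% interval -0.41 to -0.18, FDR 0.000508). It was 1 of 10 genes called, where 0.388% of 20084 tested genes were called, 0.164% lower and 0.224% higher. The shares called were 0.503% at an FDR under 0.1 (0.194% lower and 0.309% higher), 0.707% with the spread rescaled and 0.428% scaled to summed means. Its adjusted p stayed between 6.61e-06 and 0.0021 over the alternatives, although its change is smaller than a log2 ratio of 1. None of these alternatives separates genotype from sex, which cannot be told apart in this comparison (Xist means are given below).

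Promoter windows from RefSeq (build GRCm38.p6, the 250 bases before and 50 after each annotated start) were found for 7 of the 10 genes, and not for Eln, Fbn2 and Mfap4. They were searched on both strands for CAGAC, the core element that SMAD3 and SMAD4 are known to bind downstream of ALK5, and no other motif was searched. It occurred in the windows of 5 of the 7 genes (Emilin1, Mfap2, Fbln1, Fbln5 and Efemp2), where 53.2% of all 27025 genes have it in a window. By window it occurred in 7 of the 12 windows of these genes and in 49.6% of all 32851. The matches of Emilin1, the called gene with a window, are shown with 10 bases on each side, beside the single match of Mfap2, which was not called, where the reverse complement GTCTG lies on the gene's strand.
Emilin1 at chr5:30913594-30913618, plus strand: gcccagagaaCAGACtcccctcaga
Emilin1 at chr5:30913647-30913671, plus strand: gagggagggaCAGACaggagcctga
Mfap2 at chr4:141010199-141010223, plus strand: aagaattagtGTCTGggatgggaca
Capitals mark the match. Counted from the RefSeq start, the matches are at -182 and -129 in Emilin1 and at -215 in Mfap2. Both Emilin1 matches lie inside a GENCODE exon and outside its coding part. A match is a string of letters and was not measured as a binding site here.

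None of the other 9 genes passed at E13.5. Mfap4 had means of 7481 and 5827 by the authors' deposited table, and its log2 ratio of -0.36 (SE 0.10) had an FDR of 0.0672. Its adjusted p was 0.00649 with the spread rescaled and ran from 0.00649 to 0.110 over the alternatives, so its side of the threshold depends on the estimate of the spread. Rescaling divided the test statistics of E13.5 pericytes by 0.864, which loosens that test, and those of E11.5 pericytes by 1.51, which tightens it. The fibrillins had ratios above 1: Fbn2 means were 27952 and 31219 and Fbn1 means 10538 and 11409 in the authors' deposited table, and neither passed. The 95% intervals of their log2 ratios were 0.01 to 0.31 and -0.06 to 0.29, so a fall of either by more than 0.06 on this scale lay outside the interval.

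Fbln2 had means of 16147 and 14357, Fbln5 means of 2274 and 2037 and Mfap2 means of 3461 and 3158, by the authors' deposited table. Fbln1 had means of 4494 and 4839 and Efemp2 means of 2209 and 2425, by the authors' deposited table. Their adjusted p lay between 0.812 (Fbln5) and 1.00, and the 5 log2 ratios lay between -0.17 and 0.13. The median log2 ratio of the 10 genes was -0.09, beside 0.00 over all tested genes, and their summed level was 0.978 times that of controls. Summed fibroblast and meningeal markers were at 1.05 times and pericyte markers at 1.01 times the control level. Among single markers, Rgs5 of the pericyte list fell from 2933 to 1965 (log2 ratio -0.58, FDR 0.000219) and Erg of the endothelial list from 1868 to 1203, while Des of the smooth muscle list rose from 105 to 219, by the authors' deposited table. Erg was the 1 of 8 tested endothelial markers with a ratio below 1, and the median log2 ratio of that list was 0.32. Of the pericyte markers 3 of 9 had a ratio below 1, and of the smooth muscle markers 0 of 6. Over all tested genes 49.6% did. The part of these markers in the fall of Emilin1 was not tested. Cartilage and bone progenitor markers stood at 0.852 times and red cell markers at 4.37 times. For Xist, the RNA of the inactive X chromosome, the authors' deposited table gave means of 36145 in controls and 5.73 in mutants. Sex and genotype cannot be told apart in the E13.5 pericyte results, among them the call of Emilin1 and those of other genes given below. Xist was not examined in the E11.5 pericytes or the endothelial cells, so the balance of sexes there is not known.

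The change of Eln differed between the stages. Its log2 ratio was higher at E13.5 than at E11.5 by 1.64 (SE 0.43, 95% interval 0.80 to 2.48), with an adjusted p of 0.0194 by a normal test of the difference of 2 log2 ratios with Benjamini-Hochberg adjustment over 18267 genes. Of the 10 genes 1 passed, where 1.43% of all genes did. Each of the other 9 had an adjusted p of 0.348 (Fbn1) or more. Fbn1 had a difference of 0.48 (95% interval 0.02 to 0.94), Fbn2 one of 0.36 (95% interval -0.01 to 0.74) and Mfap2 one of 0.35 (95% interval -0.03 to 0.73). Emilin1 had a difference of 0.13 (95% interval -0.31 to 0.57), so its call at E13.5 alone does not show that its change differed between the stages. With the spread rescaled in both tables the adjusted p for Eln was 0.730, and over the alternatives it ran from 0.00977 to 0.730.

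**Figure D4:**
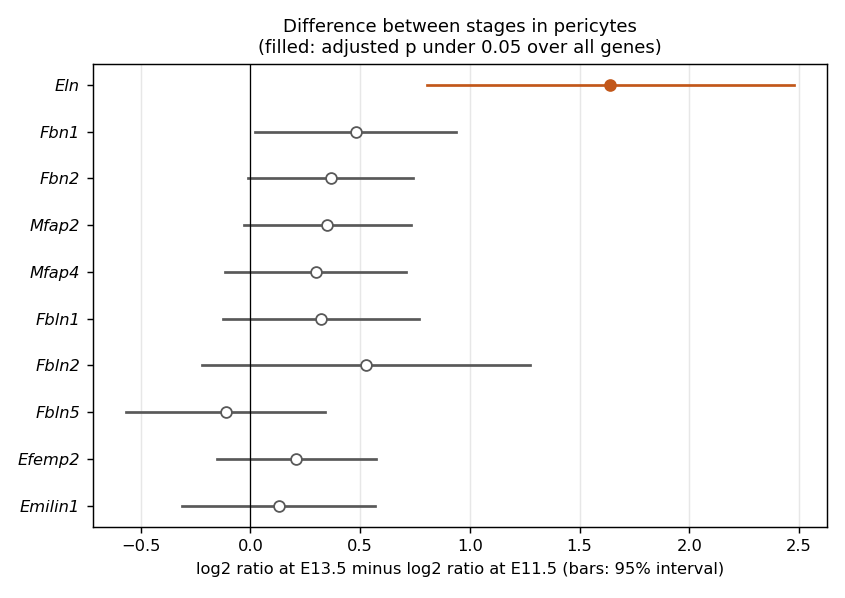
Log2 ratio of mutant to control at E13.5 minus that at E11.5 in pericytes (horizontal axis) for the 10 genes (rows), with 95% intervals as bars; the filled point has an adjusted p under 0.05 over all genes. Eln lies at 1.64, and 8 of the other 9 points lie above 0, of which only Fbn1 has an interval that leaves out 0.

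In E13.5 endothelial cells 0 of the 10 genes passed the authors' FDR, where 7.3% of 18132 genes did, 2.19% lower and 5.11% higher. At an FDR under 0.1 the count was again 0, where 10.8% of all genes passed, 3.98% lower and 6.78% higher, and with the spread rescaled it was 0, where 0.27% did. At an unadjusted p under 0.05 there were 2, Emilin1 and Fbln1, against 20.0% of all tested genes. Emilin1 means were 2220 in controls and 1733 in mutants by the authors' deposited table, and the log2 ratio was -0.36 (SE 0.17, FDR 0.189). Fbln1 means were 1380 and 1105 by the authors' deposited table, and the log2 ratio was -0.32 (SE 0.16, FDR 0.242). Mfap2, the most abundant of the 10 per kilobase here, had means of 3037 and 2988 by the authors' deposited table, and its log2 ratio was -0.02 (95% interval -0.30 to 0.26).

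Eln had means of 106 and 135 in this table, Mfap4 means of 495 and 580 and Fbln5 means of 629 and 831, each with the higher mean in mutants and with 95% intervals from -0.56 to 1.26, -0.60 to 1.05 and -0.29 to 1.09 on the log2 scale, from the authors' deposited table. Fbn1 means were 447 and 366, Fbn2 means 1745 and 1685, Fbln2 means 693 and 634 and Efemp2 means 608 and 507 in the authors' deposited table, each with an interval that includes 0. The result depends on scaling. Scaled to the summed means, which shifts every log2 ratio by -0.13, Emilin1 (adjusted p = 0.0348) and Fbln1 (adjusted p = 0.0490) passed as lower, and over the alternatives their adjusted p ran from 0.0348 to 0.886 and from 0.0490 to 0.918. That scaling called 12.1% of all genes, 1565 (8.63%) lower and 634 (3.5%) higher, in place of 397 and 926. The summed means behind it were 21082886 in controls and 22993850 in mutants, of which 6 red cell markers held 55890 and 1550954. The shift without those 6 genes was not computed. The summed level of the 6 red cell markers was 27.7 times that of controls in these mutants, all 6 being called higher. That of myeloid markers was 1.5 times. Endothelial markers were at 0.854 times their summed control level, and the 10 genes at 0.930 times. Of the endothelial markers Kdr was called lower and none higher, where 2.19% of all genes were called lower and 5.11% higher. Pericyte markers were at 0.816, fibroblast and meningeal markers at 0.889 and cartilage and bone progenitor markers at 0.222 times their summed control level. The part of these cell types in the values above was not tested.

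No gene of the 10 had a difference between the E13.5 pericyte and endothelial log2 ratios that passed (0 of 10, where 3.94% of 16920 genes passed). At an unadjusted p under 0.05 there was 1, Fbln1, with a difference of 0.43 (95% interval 0.00 to 0.85, adjusted p = 0.320).

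Other genes of elastic fibre assembly were counted the same way. Their lists were chosen with earlier results of these data known, so the counts are descriptions and not independent evidence. Of 58 partner genes listed, 52 were tested at E11.5, and 10 fell and 1 rose, with a median log2 ratio of -0.27, where 2.7% of all tested genes fell and 0.642% rose. At E13.5 in pericytes 2 of 55 fell and 1 rose with a median of -0.01, where 0.164% of all genes fell and 0.224% rose. In endothelial cells 1 of 49 fell and none rose with a median of -0.13, which is near the 2.19% of all genes that fell. With the spread rescaled, Adamtsl2 was the 1 partner gene still called at E11.5 and none was called in endothelial cells. Among the proteins that bind microfibrils from the ADAMTS family, 3 of 8 fell at E11.5. Adamtsl2, which encodes a fibrillin-binding protein linked to TGF-beta availability, had means of 109 and 19.8 by the authors' deposited table, and its log2 ratio was -2.46 (SE 0.34, FDR 2e-09). Adamts17 had means of 185 and 51.5, and Adamts6 means of 551 and 348 by the authors' deposited table, and their log2 ratios were -1.85 and -0.66. Adamts6 fell in E13.5 pericytes too, from 1213 to 852 (log2 ratio -0.51, adjusted p = 0.0360, authors' deposited table), though not when scaled to the summed means.

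**Figure D5:**
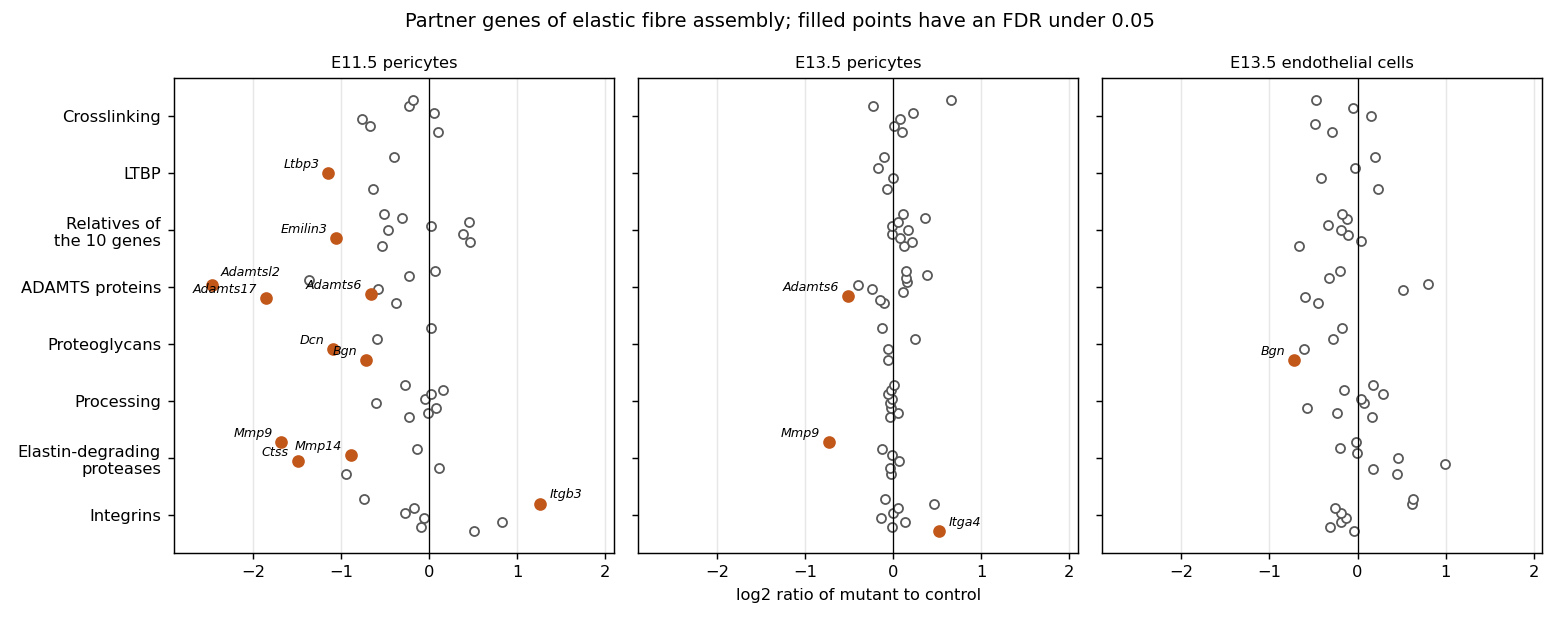
Log2 ratio of mutant to control (horizontal axis) of the tested partner genes in 8 lists (rows) for the 3 tables; each point is a gene and filled, named points have an adjusted p under 0.05. In E11.5 pericytes 10 filled points lie below 0 and Itgb3 lies above it at 1.26, while E13.5 pericytes and endothelial cells have 3 and 1 filled points.

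The crosslinking list holds 5 lysyl oxidase genes and Atp7a, which encodes a copper transporter, and 4 of these 6 had a ratio below 1 at E11.5, where 50.4% of all tested genes did. Lox, the lysyl oxidase that joins elastin chains, had means of 3673 and 2299 at E11.5 and 12438 and 12463 at E13.5 in pericytes, with log2 ratios of -0.68 (SE 0.32) and 0.00 (SE 0.09) from the authors' deposited tables. Loxl1, needed for elastic fibre upkeep, had means of 3061 and 1798 at E11.5, by the authors' deposited table, and its log2 ratio of -0.77 had an FDR of 0.0648. Of the latent TGF-beta binding proteins, Ltbp3 fell from 202 to 91.6 (adjusted p = 0.0152), while Ltbp1 and Ltbp4 had log2 ratios of -0.63 and -0.39 that did not pass, from the authors' deposited table. Mfap5, the close relative of Mfap2, had means of 11.6 and 9.32 at E11.5 and 44.7 and 57.2 at E13.5 by the authors' deposited tables.

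Emilin3, a relative of Emilin1, fell from 366 to 176 at E11.5, and the authors' deposited tables gave a log2 ratio of -1.05 (SE 0.29, FDR 0.0157) there and of 0.08 at E13.5. Of the microfibril-bound proteoglycans, Bgn fell at E11.5 and in endothelial cells, both with a log2 ratio of -0.72, and its log2 ratio in pericytes at E13.5 was -0.06, all from the authors' deposited tables. Dcn, which also serves here as a fibroblast marker, had a log2 ratio of -1.09 at E11.5 in the authors' deposited table. Of 6 tested elastin-degrading proteases 5 had a ratio below 1 at E11.5, where 50.4% of all tested genes did. Of the 6, 3 passed as lower (Mmp9, Mmp14 and Ctss), where 2.7% of all tested genes did. Their log2 ratios were -1.68, -0.89 and -1.49 by the authors' deposited table. Mmp9 fell in E13.5 pericytes too, from 1123 to 680 (log2 ratio -0.73, FDR 5.64e-05, authors' deposited table). Ctss is also expressed by myeloid cells, whose summed markers stood at 0.493 times the control level in the same E11.5 samples, with 1 of 6 called. The part of myeloid cells in the fall of Ctss was not tested.

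Among 8 integrin genes whose products bind fibrillins, fibulins or EMILIN1, Itgb3 rose at E11.5 from 253 to 606, 2.40-fold, by the authors' deposited table (log2 ratio 1.26, SE 0.23, FDR 5.73e-05). Itga4, a partner chain for EMILIN1 binding, rose at E13.5 in pericytes from 1480 to 2128 by the authors' deposited table (log2 ratio 0.52, SE 0.10, FDR 0.000372). The change differed between the stages for 5 of 52 partner genes, Adamtsl2, Adamts17, Emilin3, Mmp14 and Ctss, with differences of 2.23, 1.70, 1.13, 0.87 and 1.56 and adjusted p of 7.05e-06, 0.0220, 0.0222, 0.0432 and 0.0438 by the same normal test, which 1.43% of all genes passed. Between the cell types 1 of 47 differed, Bgn, by 0.66 (SE 0.21, adjusted p = 0.0414), where 3.94% of all genes did.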

How the data were processed

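Per the labels' protocols, messenger RNA libraries were prepared by a KAPA method and read on a NovaSeq instrument. The authors' tools, Bowtie2, Partek and DESeq2, and the build mm10 are listed without version or role by the submitters' processing notes. Details of counting and filtering are not given in the sources used here. Per the file headers, the 3 deposited tables, 1 for each comparison, hold the authors' p-value, step-up FDR, ratio, signed fold change and both least-squares group means, read here as a signal of mean normalized counts. The scale of that signal is not stated, so the depth of each library is not known and counting intervals are not given. The FDR, printed as the adjusted p, matches a Benjamini-Hochberg adjustment over 19301, 20084 and 18132 genes. Genes with an FDR under 0.05 are called changed.

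The SE of a log2 ratio is its size divided by the normal deviate that the authors' p implies, on the assumption of a Wald test. Differences between tables, which share no libraries, were tested as the difference divided by its combined SE. Every p reflects the spread between these samples alone, and that spread may be technical. Steps were tested on simulated data.

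The 10 genes, the 58 partner genes in 8 lists and the marker lists were chosen with earlier results of these data known. Named were all 10 genes, the partner genes with the smallest p among those called (up to 8 a table), 5 partner genes always given, and the 5 genes nearest to Eln. Bgn, Dcn, Ltbp2 and Mmp9 at E11.5 fall outside this rule and were added after their values were seen. Positions and transcript lengths come from GENCODE M21 (mm10) and promoters from RefSeq. Alternatives were no filter on low genes, an FDR of 0.1, a log2 ratio of at least 1, scaling to summed means, a rescaled spread and median transcript lengths. Calculations ran in Python 3.11.15 with pandas 2.3.3, scipy 1.17.1, numpy 2.4.6 and, for plots, matplotlib 3.10.9.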

Additional observations from a re-analysis of the deposited data

Results flagged for a closer look

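The fall of Eln in mutant pericytes differed between the stages by a test of the difference itself. The log2 ratio at E13.5 was higher than that at E11.5 by 1.64, from -1.69 to -0.05, while the control level moved from the 52.3rd to the 94.3rd percentile of its table. The spread-rescaled test did not call it (adjusted p = 0.730, within a range of 0.00977 to 0.730 over the alternatives). In the E13.5 pericyte groups sex cannot be told apart from genotype, and the balance of sexes at E11.5 was not examined.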

How the results depend on the processing

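No paired analysis was possible because the tables hold group means and no value per sample, and leaving out single replicates was not run for the same reason. Counts of the 10 genes called in E11.5 pericytes, E13.5 pericytes and endothelial cells were 2, 1 and 0. They were 3, 2 and 0 at an FDR of 0.1, and 1, 0 and 0 when a log2 ratio of at least 1 was also asked. With the spread rescaled they were 0, 2 and 0, and scaled to summed means 2, 1 and 2. Without a filter on low genes they stayed at 2, 1 and 0. Partner genes called numbered 11, 3 and 1. They moved to 8, 0 and 0 with the minimum log2 ratio and to 1, 4 and 0 with the spread rescaled. With summed means they were 13, 3 and 6, and at an FDR of 0.1 they were 14, 4 and 2. Over all genes the shares called were 3.35%, 0.388% and 7.3%. At an FDR of 0.1 these shares were 5.9%, 0.503% and 10.8%. With the spread rescaled they were 0.0259%, 0.707% and 0.27%, and scaled to summed means 4.23%, 0.428% and 12.1%. No share was computed for the minimum log2 ratio or without the filter. The difference between stages called 1 of the 10 genes, and 0 with the spread rescaled, while that between cell types called 0 under all 4 alternatives. Scaled to summed means, the differences between cell types of Fbln2 and Mfap2 changed sign, to 0.10 and 0.0352, and neither passed in any setting. With median transcript lengths, 4 of the 10 genes kept their rank per kilobase in each table. The cause of these changes was not tested. The depth behind each value is unknown, so what it limits could not be measured.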

Other observations

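The genes whose mutant-to-control log2 ratios lay nearest to those of Eln over the 3 comparisons were Aqp1, Efhd2, Lmna, Runx1 and Cdkn1c. They were sought among 8725 genes above the median level in every table, with the mean of both groups as the level. Eln itself does not reach that level in endothelial cells or in E11.5 pericytes. The distances of the named genes from Eln in log2 units were 0.33, 0.39, 0.47, 0.48 and 0.48. Aqp1, a water channel gene, had means of 316 and 84.4 at E11.5 without passing (adjusted p = 0.155), in the authors' deposited table. Cdkn1c, a cell cycle inhibitor gene, fell from 6809 to 2067 at E11.5 (adjusted p = 0.00022) and had a log2 ratio of 0.17 at E13.5 in the authors' deposited tables. Runx1, a transcription factor gene, fell at both stages, by the authors' deposited tables, with a log2 ratio of -1.84 (FDR 0.00615) at E11.5 and of -0.48 (FDR 0.00544) at E13.5. Efhd2 and Lmna, which encode a calcium-binding protein and nuclear lamins, had log2 ratios of -1.38 and -1.23 at E11.5 and 0.16 and -0.11 at E13.5 in pericytes, in the authors' deposited tables. These genes were picked for their likeness to Eln, so the match is a description with no test.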
